A study of Mus musculus with 4 samples.

Results

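The miRNA content of mouse cortical neurons was compared between Day 6 and Day 4 of culture by setting the Day 6 array directly against the Day 4 array. All 1030 probes that name at least 1 mouse miRNA were taken, out of 2660 probe identifiers on the array, of which 2345 name a miRNA of any organism. Both groups were untreated primary cultures prepared from the cortex of E15 embryos of Swiss albino mice and kept in culture for 4 or 6 days. The series holds 4 arrays, at Days 2, 4, 6 and 8. Each array carried RNA pooled from 4 separate experiments, so that the spread between cultures is not measured and day cannot be told apart from array. No test was therefore possible, and no p-value is given. Each difference below is the log2 level on Day 6 minus that on Day 4, after the arrays were brought to a common distribution. The ± that follows it is the technical SD of a difference between spots, since each probe was spotted 4 times on each array. "Higher" and "lower" describe these 2 arrays.

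A miRNA is a short RNA that guides silencing proteins to messenger RNAs, mostly by pairing of its seed (bases 2 to 8 from the 5′ end) with the target, and miRNAs of the same seed are grouped as a family. Many miRNAs lie in clusters that are transcribed together. When cortical cells leave the cell cycle and mature into neurons, miRNAs of proliferating cells such as those of the miR-17-92 cluster are known to decline, while miR-29 and the activity-induced miR-132 are known to accumulate.

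The sequences below belong to the miRNAs on which the comparison turned. They are RefSeq mature sequences (GRCm38.p6). The array uses older names, most of which give no arm, so the RefSeq arm was assigned by hand for most of them and not checked against the probe sequences. Of the 30 names looked up, 29 were found. Capitals mark the seed. The first set holds the miRNAs of the miR-17-92 cluster and its paralogues that were detected, and it shows that 6 of them share the seed AAAGUGC and another pair the seed GUGCAAA. The last line of the set adds miR-32, which has the seed of miR-25 but lies elsewhere in the genome.
miR-17: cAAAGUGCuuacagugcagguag
miR-20a: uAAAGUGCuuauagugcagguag
miR-20b: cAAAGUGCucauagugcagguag
miR-106a: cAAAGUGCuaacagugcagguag
miR-106b: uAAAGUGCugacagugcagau
miR-93: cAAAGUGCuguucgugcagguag
miR-19a: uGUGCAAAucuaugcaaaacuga
miR-19b: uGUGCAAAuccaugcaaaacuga
miR-25: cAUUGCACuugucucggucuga
miR-32: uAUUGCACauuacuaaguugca

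These miRNAs come from 3 genomic sites. On chromosome 14, miR-17 (chr14:115043684-115043706), miR-19a (chr14:115044048-115044070) and miR-20a (chr14:115044183-115044205) lie on the plus strand. On chromosome X, miR-106a (chrX:52742541-52742563) and miR-20b (chrX:52742159-52742181) lie on the minus strand. On chromosome 5, miR-106b (chr5:138165787-138165807), miR-93 (chr5:138165574-138165596) and miR-25 (chr5:138165332-138165353) lie on the minus strand within the annotated span of Mcm7, a gene of DNA replication licensing. The mature miR-19b is encoded on both chromosome 14 (chr14:115044358-115044380) and chromosome X (chrX:52741991-52742013).

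The second set holds miRNAs that were higher on Day 6. The miR-29 family is shown because its 3 members share the seed AGCACCA, and miR-132, miR-138 and miR-210 because they were among the miRNAs higher on Day 6 and are known for roles in neurons or in low oxygen. miR-3473, matched to miR-3473a of RefSeq, and miR-882 are shown because they had 2 of the 4 differences above 0.6 and share the seed GGAGAGA.
miR-29a: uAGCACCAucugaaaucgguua
miR-29b: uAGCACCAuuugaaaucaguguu
miR-29c: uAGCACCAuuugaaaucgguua
miR-132: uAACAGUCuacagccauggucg
miR-138: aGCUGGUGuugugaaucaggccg
miR-210: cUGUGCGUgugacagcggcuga
miR-3473: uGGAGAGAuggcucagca
miR-882: aGGAGAGAguuagcgcauuagu
miR-2137: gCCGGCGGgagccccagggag

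The Day 6 array was dimmer than the Day 4 array, and the size and direction of a difference depend on how this was scaled. A probe was called detected at a background-subtracted intensity of at least 300, the threshold in the study's methods, and no negative control probe exceeded 123 on Day 4 or 93.9 on Day 6. Of the 1030 mouse probes, 402 (39.0%) were detected on Day 4 or Day 6. Of these, 338 were detected on both arrays, 63 on Day 4 alone and 1, miR-210, on Day 6 alone. The mean intensity of the mouse probes was 1653 on Day 4 and 1275 on Day 6. The median ratio of signals on Day 6 over Day 4 was 0.672 over the 402 miRNAs, and the signal itself was higher on Day 6 for only 5 of them, namely miR-3473, miR-210, miR-2137, miR-29a and miR-29b. Without normalization the median difference was -0.55. The control probes were dimmer on Day 6 as well: 15 endogenous small RNA controls differed by -0.51 on average, with a range from -0.84 to -0.06, and 33 spike-in controls by -0.29, with a range from -0.55 to -0.11. Scaling by the spike-in controls left the median of all detected miRNAs at -0.26, and scaling by the endogenous controls left it at -0.04. The values below are from quantile normalization over the 4 arrays, in which the median was -0.00. They are therefore relative to the other miRNAs and not absolute amounts. In cultures, fewer cells of a type and less RNA per cell cannot be told apart.

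**Figure D1:**
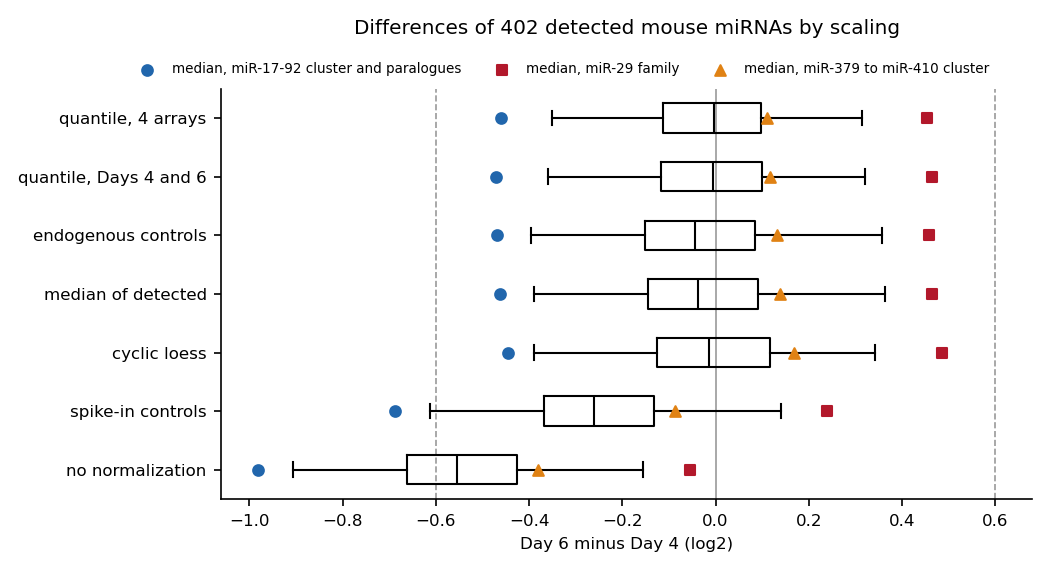
Day 6 minus Day 4 differences (log2, x axis) of 402 detected mouse miRNAs under 7 scalings of the arrays. Boxes span the quartiles with a line at the median, whiskers run from the 5th to the 95th percentile, symbols are medians of 3 groups, and dashed lines mark a difference of 0.6. The median of all detected miRNAs lay at -0.26 with spike-in controls and at -0.55 without normalization, while the miR-17-92 group lay below and the miR-29 family above it under every scaling shown.

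Few miRNAs differed by much. The differences had an SD of 0.21, against a median technical SD of 0.107 between spots, and 347 of 402 (86.3%) lay within 0.3 of 0. Higher levels by over 0.6, the threshold of the study for miRNAs, were found for 4 miRNAs (0.995%), and lower levels by over 0.6 for 5 (1.24%), which makes 9 in all (2.24%). The 4 spots on Day 6 did not overlap with the 4 spots on Day 4 for 135 miRNAs (33.6%), of which 73 (18.2%) were higher and 62 (15.4%) lower. Separation of the spots was less frequent among dim miRNAs. With the miRNAs divided by level into 3 equal bins, it was found for 36 of 134 in the dimmest bin (26.9%), 48 of 134 in the middle bin (35.8%) and 51 of 134 in the brightest bin (38.1%).

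**Figure D2:**
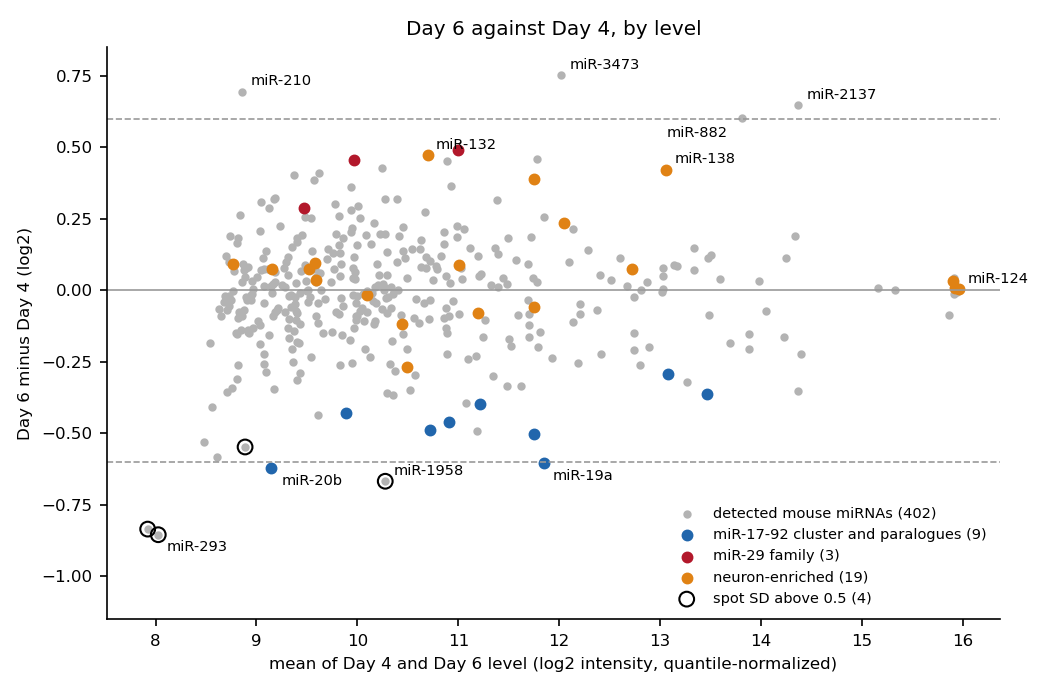
Day 6 minus Day 4 difference (log2, y axis) against the mean level on the 2 arrays (log2 intensity after quantile normalization, x axis). Each point is 1 of 402 detected mouse miRNAs, coloured by group, and open circles mark the 4 miRNAs whose spot SD was above 0.5. All 9 members of the miR-17-92 group lie below 0 and all 3 members of the miR-29 family above it.

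Of the 5 miRNAs counted as lower, 3 rested on 1 bright spot. For miR-293, a miRNA of embryonic stem cells, the spots read 1808, 84.1, 75.8 and 58.9 on Day 4 and 89.1, 18.7, 68.0 and 62.3 on Day 6. Its difference of -0.86 ± 1.58 became -0.06 when the median of the spots was taken. The same held for the probe shared by miR-465a-3p, miR-465b-3p and miR-465c-3p (-0.84 ± 1.39, and -0.06 with the median) and for miR-1958 (-0.67 ± 1.11, and -0.18 with the median). The last pair of probes falls outside the rule for named miRNAs and is given because of the small count. The other miRNAs counted as lower were miR-19a and miR-20b, both of the miR-17-92 group.

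The miR-17-92 cluster and its paralogues were lower on Day 6 throughout. This list holds the miRNAs of the chromosome 14 cluster and of its copies on chromosomes X and 5, which are best known from proliferating cells and as regulators of cell cycle exit. Of its 13 members, 12 had a probe and 9 were detected. All 9 were lower on Day 6, beside 203 of all 402 detected miRNAs. Several of the 9 have nearly the same sequence, so they may not be 9 separate measurements, which was not tested. The spots did not overlap in any of the 9, while 15.4% of all were apart and lower. The median was -0.46, against -0.00 over all detected miRNAs. Of the 9, miR-20b was detected on Day 4 alone, and the median of the 8 detected on both arrays was -0.44. The other 3 probes, for miR-18a, miR-18b and miR-92a, were far below the threshold of 300 on both arrays.

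The lowest difference measured on both arrays with spots apart was that of miR-19a, a member of the chromosome 14 cluster. Its spots read 4591, 4676, 4723 and 4934 on Day 4 and 2177, 2260, 2260 and 2279 on Day 6. These signals are before scaling, where nearly all miRNAs were dimmer on Day 6. After scaling the spots were still apart, and the difference was -0.60 ± 0.04, or 1.52-fold lower. miR-19b, of the same seed, had signals of 15213 on Day 4 and 7465 on Day 6 (-0.36 ± 0.07).

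Of the 6 miRNAs with the miR-17 seed, which repress cell cycle inhibitors such as p21, all were lower. miR-17 had spots at 2223, 2139, 2071 and 2042 on Day 4 and at 1097, 975, 996 and 943 on Day 6, a difference of -0.49 ± 0.10. miR-20a went from 2370 to 1172 (-0.46 ± 0.11). Their copies on chromosome X were lower by a like amount, with -0.50 ± 0.23 for miR-106a. The sequences of miR-17 and miR-106a are nearly the same, and whether their probes tell them apart was not tested. miR-20b read 662 on Day 4 and 256 on Day 6, below the detection threshold, and its difference of -0.62 ± 0.40 is given as at least 1.27-fold lower. In such a case the fold was taken from the level on the brighter array to a floor on the dimmer one, namely the lowest level there among mouse probes with all spots at 300 or more, or the level of the probe itself if above that floor.

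The copies on chromosome 5 were also lower, and their values overlapped with those of the other sites. miR-106b had signals of 11028 and 5852 on Days 4 and 6 (-0.29 ± 0.08). miR-93 had 2836 and 1507 (-0.40 ± 0.13). miR-25, which shares its seed with miR-92a, had spots between 1038 and 1144 on Day 4 and between 485 and 552 on Day 6 (-0.43 ± 0.08). The passenger strand miR-20a* was lower as well, at -0.34 ± 0.12, with signals of 411 and 195. The Day 6 signal of miR-20a* was under the detection threshold, so the size of its difference is not resolved. miR-32 was lower by a similar amount, with 3496 and 1897 (-0.34 ± 0.08). Both were picked after their values were seen.

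**Figure D3:**
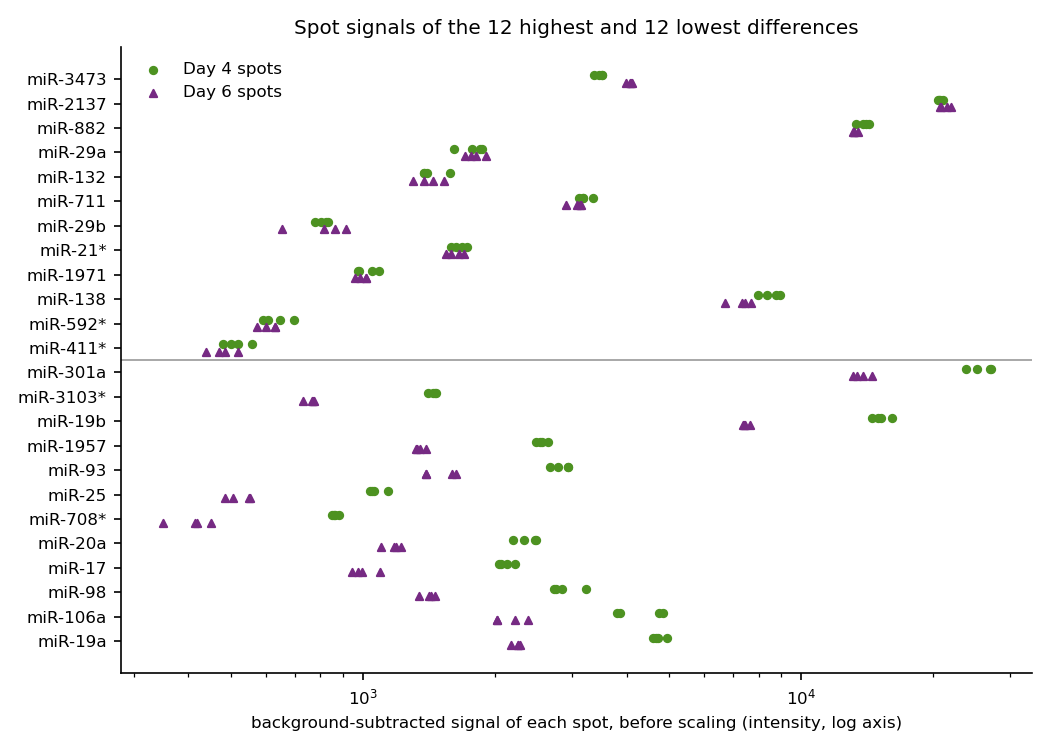
Background-subtracted signal of each spot before scaling (intensity, log axis) on Day 4 (circles) and Day 6 (triangles) for the 12 miRNAs with the highest and the 12 with the lowest difference, chosen by the naming rule. Below the line the Day 6 spots lie far left of the Day 4 spots, as for miR-19a with 2177 to 2279 against 4591 to 4934, while above it the spots of both arrays lie close together or, for miR-3473, the Day 6 spots lie to the right.

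Other families were also lower at the median, to a smaller extent. The family of miR-130 and miR-301 had 4 of 5 members detected, all lower, with a median of -0.29 and spots apart in 3. Of all 402 detected miRNAs, 203 were below 0 and 15.4% were apart and lower. miR-301a, at 25789 and 13732, had the largest difference (-0.35 ± 0.18), whereas miR-130a (-0.17 ± 0.49) lay within its spot error. In the miR-15/16 family, which targets cyclins, 4 of 5 detected members were lower and the median was -0.22. miR-15a went from 8974 to 4965 (-0.26 ± 0.08), while miR-195 of the same family was higher (0.25 ± 0.07). Both had spots that did not overlap.

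The let-7 family, which is known to accumulate with differentiation, was on balance lower at a median of -0.19. Of its 9 members, all detected, 7 were below 0, beside 203 of all 402 detected miRNAs. The spots were apart and lower for 3 of the 9, beside 15.4% of all. miR-98, which shares the let-7 seed, had signals of 2891 and 1412 (-0.49 ± 0.10), and let-7e was at the other end with 0.11 ± 0.11. In the miR-181 family, 4 of 4 detected members were below 0, with a median of -0.16. Of these only miR-181c had spots apart (-0.30 ± 0.09). Among the other miRNAs with the 12 lowest differences were miR-708*, the passenger strand of a miRNA in an intron of Odz4 (-0.44 ± 0.13), miR-1957 (-0.39 ± 0.06) and miR-3103* (-0.36 ± 0.04).

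Among the miRNAs that were higher on Day 6, the 4 beyond 0.6 were miR-3473, miR-210, miR-2137 and miR-882. miR-3473 had spots at 3524, 3520, 3460 and 3376 on Day 4 and at 4072, 3985, 4110 and 4092 on Day 6. It was the largest difference measured on both arrays, at 0.75 ± 0.04 or 1.69-fold, and it stayed above 0 without normalization (0.21). miR-2137 was among the brighter miRNAs, with 20780 and 21292 (0.65 ± 0.05). miR-882 had 13896 and 13238 (0.60 ± 0.07), so that its signal was lower on Day 6 and it was higher only relative to the other miRNAs. Scaled by the endogenous controls, miR-2137 and miR-882 were at 0.54 and 0.44, below the threshold of 0.6. The functions of these 3 miRNAs are little known.

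miR-210, the miRNA induced by low oxygen through HIF, was the only one detected on Day 6 and not on Day 4. Its spots read 232, 271, 279 and 273 on Day 4 and 341, 348, 388 and 326 on Day 6. The measured difference was 0.69 ± 0.11, and since the Day 4 signal was under the threshold it is given as at least 1.43-fold higher. The signals on Days 2 and 8 were 434 and 714, so the Day 4 array had the lowest signal of the 4.

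The late-numbered mouse miRNAs, from miR-1892 upwards, had a median of 0.04, which was -0.0075 with endogenous controls and -0.23 with spike-in controls. Of their 209 probes 56 were detected, 38 of them above 0, beside 49.3% of all detected miRNAs. Without the 2 saturated ones, 36 of 54 were above 0. The spots were apart and higher for 19 of the 56 and apart and lower for 2, beside 18.2% and 15.4% of all detected miRNAs. Of the 16 detected miRNAs from miR-690 to miR-721, 7 were above 0 and 9 below it, with spots apart and higher for 5 and apart and lower for 6. In this list 3 were saturated, and without them 6 of 13 were above 0. The lowest was miR-708* (-0.44 ± 0.13). The highest was miR-711, at 3208 and 3067 (0.46 ± 0.07), within the annotated span of Col7a1 (chr9:108969970-108969991).

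The miR-29 family, known to limit apoptosis and DNA methyltransferases in maturing neurons, was higher in all 3 members, with a median of 0.45. The spots were apart in all 3. Of all detected miRNAs, 49.3% were above 0 and 18.2% were apart and higher. miR-29a and miR-29c have nearly the same sequence, and whether their probes tell them apart was not tested. miR-29a had spots at 1618, 1780, 1869 and 1847 on Day 4 and at 1711, 1763, 1909 and 1815 on Day 6. The signals thus overlapped before scaling, while most miRNAs were dimmer on Day 6, and after scaling the spots were apart with a difference of 0.49 ± 0.10. miR-29b had signals of 811 and 813 (0.45 ± 0.21). miR-29c, encoded beside a copy of miR-29b on chromosome 1, had 591 and 496 (0.29 ± 0.10). Without normalization the median of the family was -0.055.

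Neuronal miRNAs with roles at the synapse were among the largest differences above 0. miR-132, which is transcribed through CREB upon activity and promotes dendrite growth, had signals of 1434 and 1414 (0.47 ± 0.13, or 1.39-fold). miR-138, which restricts spine size through Lypla1, had 8529 and 7298 (0.42 ± 0.11). miR-129-5p had 3212 and 2922 (0.39 ± 0.11). In all 3 the spots of the arrays did not overlap after scaling, while 18.2% of all detected miRNAs were apart and higher. Spots apart were also a condition for the 12 highest differences, so the separation adds no support. miR-221 and miR-222, a pair of the same seed on chromosome X, were higher by 0.32 ± 0.11 and 0.28 ± 0.08.

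Within their longer lists, miR-132, miR-138 and miR-129-5p were exceptions. Of 24 neuron-enriched miRNAs with a probe, 19 were detected, 14 of them above 0 (49.3% of all detected miRNAs were) at a median of 0.07. Without the 3 saturated ones, 11 of 16 were above 0. The spots were apart and higher for 5 of the 19 and apart and lower for none, beside 18.2% and 15.4% of all. The most abundant ones, miR-124 (63802 and 63767), miR-9 and miR-9*, were saturated on both arrays, so that no fold can be given. miR-149 was the lowest of the list, with 1620 and 920 (-0.27 ± 0.16), and its spots overlapped. Of 5 detected activity-regulated miRNAs, miR-132 and miR-138 had spots apart and higher, beside 18.2% of all, and miR-188-5p was lowest at -0.15 ± 0.24. Of the 10 miRNAs on which the study focused, all were detected and 7 were above 0, beside 49.3% of all. Without the saturated miR-124, 6 of 9 were above 0. The median of the 10 was 0.03, and only miR-129-5p had spots apart, beside 33.6% of all. The other values were 0.07 ± 0.07 for miR-128, 0.09 ± 0.26 for miR-218, 0.19 ± 0.23 for miR-329, 0.04 ± 0.18 for miR-495, 0.02 ± 0.11 for miR-377, -0.02 ± 0.14 for miR-326, -0.03 ± 0.12 for miR-203 and -0.05 ± 0.04 for miR-290-5p.

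The imprinted miRNAs of the Dlk1-Dio3 region on chromosome 12, which are expressed from the maternal chromosome and enriched in brain, were on balance slightly higher. In the miR-379 to miR-410 cluster, 23 of 44 probes were detected and 20 of these were above 0, compared with 198 (49.3%) of all detected miRNAs. The median was 0.11. The spots were apart and higher for 7 of the 23, beside 18.2% of all detected miRNAs, and apart and lower for 1, beside 15.4%. This was miR-668 (-0.24 ± 0.08, with 4419 and 2692). miR-411* was highest, at 515 and 479 (0.40 ± 0.10). In the miR-127 and miR-136 cluster, 17 of 26 probes were detected, 15 above 0, with a median of 0.12. Of these 17, 5 were apart and higher, beside the same 18.2%. miR-433 was highest (0.36 ± 0.09), and miR-136 was lowest at -0.09 ± 0.19 with signals of 14246 and 8171. Most single members had overlapping spots, and with spike-in scaling both medians were below 0, at -0.087 and -0.11.

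The remaining families lay near 0. The medians were -0.07 for the miR-30 family (5 detected), -0.07 for miR-125, miR-99 and miR-100 (5), -0.04 for miR-23, miR-24 and miR-27 (4), -0.03 for miR-26, miR-103 and miR-107 (4), -0.06 for the Sfmbt2 cluster (21), -0.03 for neuronal miRNAs in introns (17), -0.02 for the miR-290 and miR-302 clusters of pluripotent cells (6) and -0.00 for star strands (93). Single members in these lists still had spots apart, such as miR-99a (-0.16 ± 0.04) and miR-24 (-0.16 ± 0.07). The ends of the lists were -0.20 ± 0.34 for miR-30e and 0.07 ± 0.04 for miR-30c, -0.23 ± 0.25 for miR-26b and 0.02 ± 0.07 for miR-107, and -0.37 ± 0.32 for miR-338-3p and 0.12 ± 0.11 for miR-204. miR-34a, induced by p53 and the only detected member of its family, was at 0.11 ± 0.11.

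**Figure D4:**
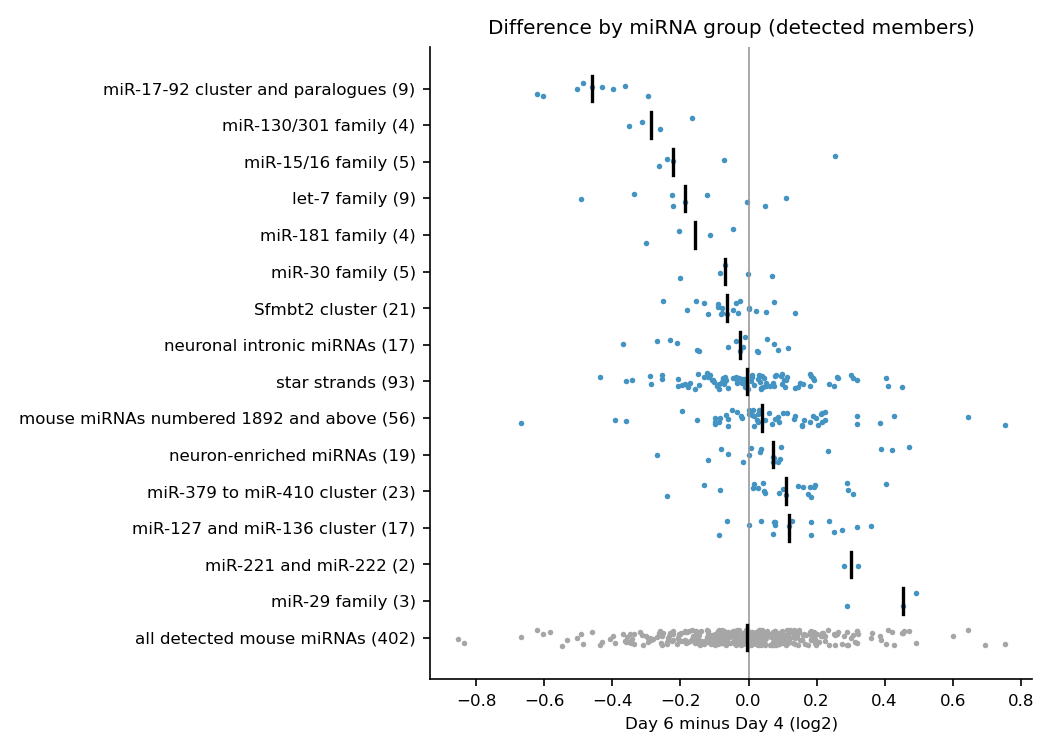
Day 6 minus Day 4 difference (log2, x axis) of each detected miRNA, by group, with the number of detected members in brackets. Each point is a miRNA, points are spread vertically for visibility, and the black bar is the median of the group, which runs from -0.46 for the miR-17-92 group to 0.45 for the miR-29 family, with -0.00 for all 402 detected miRNAs.

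Markers of other cell types were checked on the same arrays. Summed signals are given before scaling, so that the median ratio of 0.672 between the arrays applies to them and no shift between cell types can be read from them. All 7 neuronal markers were detected, and 3 of them were saturated and cannot show a difference. The sum of the other 4 was 18819 on Day 4 and 14572 on Day 6. Of 6 markers of astrocytes and mesenchymal cells, miR-21 and miR-214 were detected, the sum was 1018 and 717, and the astrocyte-enriched miR-143 was near 0 at 7.95 and 29.5. Of 5 markers of microglia and leukocytes, only miR-142-3p was detected, the sum was 698 and 447, and the myeloid miR-223 was near 0 at 17.8 and 28.0. Of 5 endothelial and erythroid markers only miR-451 was detected, and the sum was 943 and 495. These last 2 markers were among the lowest differences. miR-142-3p read 342 and 132 (-0.53 ± 0.15) and miR-451, of red blood cells, read 400 and 147 (-0.58 ± 0.23), both under the threshold on Day 6, and no bound on the fold exceeded 1. Both oligodendrocyte markers, miR-219-5p (-0.13 ± 0.17) and miR-338-3p, were detected, with a sum of 1969 and 1065, and of 8 markers of muscle, liver and epithelium only miR-203 was, with a sum of 1079 and 798. The part of these cells in the differences of other miRNAs was not tested.

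The other arrays of the series, at Days 2 and 8, share no array with the comparison, although all 4 were normalized together. Over the 402 miRNAs, the Day 8 minus Day 2 difference had an SD of 0.54, and 39 were higher (9.7%) and 45 lower (11.2%) by over 0.6 (20.9% in all). The Day 6 minus Day 4 difference followed it with a Pearson correlation of 0.69 and a Spearman correlation of 0.66 over miRNAs, which share arrays and are not replicates. Of the 24 miRNAs (5.97%) higher on Day 6 by over 0.3, 22 were higher on Day 8 than on Day 2, as were 45% of all. Of the 31 (7.71%) lower by over 0.3, 29 were lower on Day 8 than on Day 2, as were 55% of all.

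The medians of Day 8 minus Day 2 were -1.37 for the miR-17-92 group and 1.43 for the miR-29 family. miR-25 had the lowest value of the 9, at -1.78, and miR-29a the highest of the 3, at 1.70. For some miRNAs the outer days differed and Days 4 and 6 hardly did. miR-136 was 1.28 higher on Day 8 than on Day 2, beside -0.09 ± 0.19 between Days 4 and 6, and miR-376a was 0.96 higher beside 0.11 ± 0.14. The reverse was seen for miR-1971, a late-numbered miRNA, with 0.04 on the outer days and 0.43 ± 0.08 on Days 4 and 6.

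**Figure D5:**
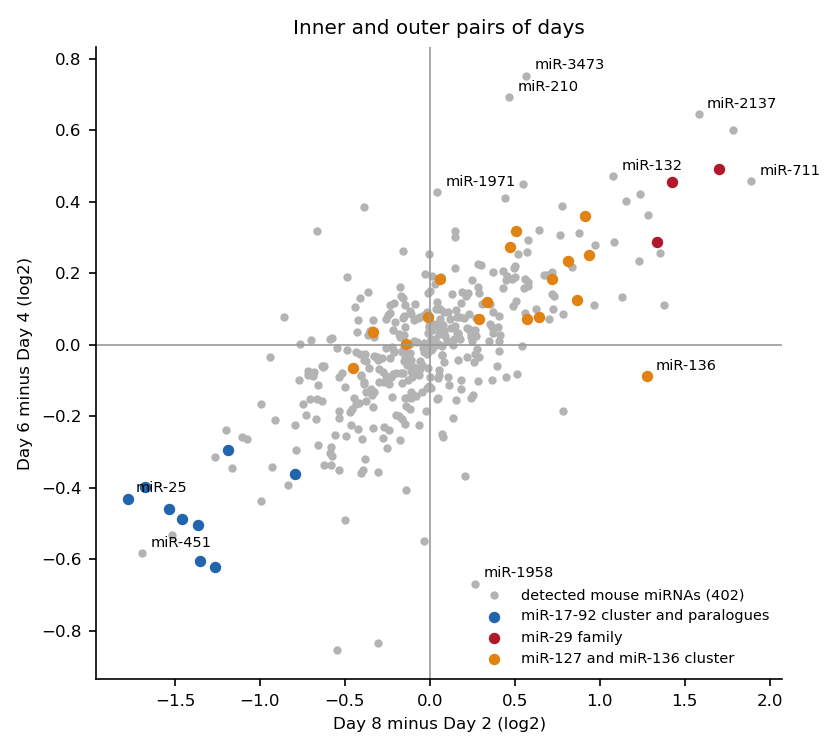
Day 6 minus Day 4 difference (log2, y axis) against Day 8 minus Day 2 difference (log2, x axis) of 402 detected mouse miRNAs, which use different arrays normalized together. Points are miRNAs coloured by group, and they follow a rising band with a Pearson correlation of 0.69, with miR-17-92 members at the lower left, the miR-29 family at the upper right and miR-136 below the band at 1.28.

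Seen as a step in time, over the miRNAs detected on Day 4 or Day 6, the step from Day 4 to Day 6 was small beside that from Day 2 to Day 4. Neighbouring steps share an array, and each is given by its own values. Over the same 402 miRNAs, 30 were higher and 7 lower by over 0.6 on Day 4 than on Day 2, with an SD of 0.32. Of the 402, 63 were included through their Day 4 signal alone, and such a choice favours Day 4 over Day 2. The steps were therefore not compared on equal terms. From Day 6 to Day 8, 4 were higher and 1 lower, with an SD of 0.23. No replicate array gives the error of these counts.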

How the data were processed

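Total RNA of untreated cultures carried 1 dye, Hy3, and was hybridised to capture probes with locked nucleic acids designed on miRBase 16. The authors' scanner files, read with Mapix 4.5.0 per the file headers, hold intensity at 532 nm, without normalization between arrays, for 12312 spots per array. The percent of saturated pixels per spot was also deposited by the authors. The deposited value table holds intensity and equalled median foreground minus background averaged over spots.

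In R 4.3.3, background was removed from the mean foreground by the normexp method of limma 3.58.1 with an offset of 50. Values were log2-transformed, quantile-normalized over the miRNA spots of the 4 arrays and averaged over 4 spots. The study scaled by endogenous controls, which is an alternative here. The ± is the root of the summed squared spot SDs. Spots were called apart where their normalized values did not overlap. Probes with 50% or more saturated pixels received no fold. With 1 pooled array per day no test was run, and the number of arrays limits the precision.

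Named miRNAs were the 12 largest differences each way among miRNAs at 300 or more on both arrays, with spots apart and unsaturated, both ends of each list, 10 miRNAs of the study, 3 purity markers (miR-124, miR-223, miR-143) and up to 5 bounded differences each way. The members, lists and rules were chosen with earlier results of these data known. Gene names are those of the array design. Python 3.11.15 and pandas 2.3.3 were used.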

Additional observations from a re-analysis of the deposited data

Results flagged for a closer look

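Signal above the negative controls appeared in probes that the comparison does not use. Of 202 probes named for viral miRNAs, 41 reached 300 on Day 4 or Day 6, with a highest signal of 20407 on Day 4 and a median Day 6 minus Day 4 difference of 0.02. Of 1113 probes that name human or rat miRNAs and no mouse miRNA, 221 reached 300 (median -0.01). Of 221 unnamed probes, 116 did so. In the scanner's other colour channel, where no dye was used, 5 mouse probes had a spot at 300 or more on Day 4 and 1 on Day 6, and leaving out such spots changed neither count of miRNAs beyond 0.6.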

How the results depend on the processing

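The scaling decided most. Beside 4 miRNAs higher and 5 lower by over 0.6, there were 2 higher and 5 lower with endogenous controls or median scaling, 2 and 4 with cyclic loess, 0 and 25 with spike-in controls and 0 and 149 without normalization. The count of lower miRNAs was 8 with a background floor of 50, 8 from the authors' value table, 2 with the median of spots, and 2 with a signal of at least 300 on both arrays or on all 4. The members changed as well. With endogenous controls miR-451 took the place of miR-19a among the 5 lower, and the 2 with the median of spots were miR-20b and miR-451. Over a threshold of 1 there were 0 higher and 0 lower. Leaving out each spot position gave 3 to 4 higher and 4 to 5 lower. The medians under spike-in controls and without normalization were -0.69 and -0.98 for the miR-17-92 group, 0.24 and -0.055 for the miR-29 family, -0.18 and -0.47 for neuron-enriched miRNAs, -0.087 and -0.38 for the miR-379 to miR-410 cluster, and -0.11 and -0.40 for the miR-127 and miR-136 cluster. Leaving out each spot position moved them to between -0.47 and -0.46, 0.41 and 0.48, 0.05 and 0.05, 0.10 and 0.12, and 0.08 and 0.15, in this order. Without normalization miR-882 was at -0.072, and 17 of 49 named miRNAs beyond 0.2 changed sign, while none of the 49 did so with endogenous or spike-in controls. No paired analysis was possible because there is 1 array per day. Signals near the threshold of 300 and saturated probes limit what the arrays resolve, and no value measures the spread between cultures.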

Other observations

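A short motif was shared by several miRNAs that were higher on Day 6. It was noticed after the values were seen and is a description only. The letters GGAGAG occur in 36 of 1679 mature mouse miRNA names of RefSeq (2.14%), searched on the RNA strand. Of these 36, 9 could be matched to the array, some by hand through an older array name, as for miR-3473. Of the 9, 7 were detected, and all 7 had a difference above 0, with a median of 0.26. miR-3473 and miR-882, both beyond 0.6, are among the 7, so the count is not independent of how the motif was noticed. The 2 not detected were below 0, miR-3102-5p.2 at -0.06 ± 0.23 and miR-802* at -0.10 ± 0.67. Of 93 other detected miRNAs whose array name is unchanged in RefSeq, 48 were above 0, with a median of 0.00. The 93 were matched by a different rule, so these counts are not directly comparable. Capitals mark the motif.
miR-3473: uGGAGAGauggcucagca
miR-882: aGGAGAGaguuagcgcauuagu
miR-711: gggacccggGGAGAGauguaag
miR-710: ccaagucuuggGGAGAGuugag

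The 4 miRNAs shown had differences of 0.75 ± 0.04, 0.60 ± 0.07, 0.46 ± 0.07 and 0.26 ± 0.07. The other 3 detected were miR-1894-3p (0.22 ± 0.09), miR-3095-3p (0.20 ± 0.07) and miR-30c-1* (0.11 ± 0.12). miR-882 lies on chromosome 12 (chr12:109682207-109682228). Matched names cover 100 of 417 detected mouse names, so that the share of the motif among all detected miRNAs is not known here.

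Further pairs of related miRNAs outside the lists were lower together on Day 6. miR-101a, which represses Ezh2, had signals of 13365 and 6547 (-0.32 ± 0.09), and miR-101b had 1702 and 901 (-0.35 ± 0.06). miR-135a had 1488 and 831 (-0.28 ± 0.20), and miR-135b had 1756 and 966 (-0.30 ± 0.23), with overlapping spots in both. These were also picked after their values were seen.

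Several miRNAs were under the detection threshold on Day 6 with a bound above 1. miR-489 (604 and 293) was at least 1.18-fold lower, miR-181c* (550 and 278) at least 1.09-fold, miR-1187 (530 and 275) at least 1.07-fold and miR-466e-5p (520 and 279) at least 1.05-fold.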
